A study of Rattus norvegicus with 38 samples.

Results

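The genes described here are interferon response genes of the rat lung, a list of 38 genes that are known to be switched on by interferons or to carry the interferon signal. A gene was a member if the array held a probe set, a group of short probes for 1 transcript, annotated with its symbol alone. By that rule 35 of the 38 listed genes could be measured, out of 14217 genes in all. No probe set was matched to Gbp5, Ifi47 and Xaf1, which are not analysed here. The rule itself uses no measured difference, although the list was drawn up with earlier results of these data known.

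The study measured lung RNA of 38 female rats of the N:NIH strain, 34 weeks old, on Affymetrix Rat Genome 230 2.0 arrays, with 1 array for each animal. The rats came from 2 lines bred for high (HCR, high capacity runner) or low (LCR, low capacity runner) intrinsic exercise capacity. Each line was exposed 5 days per week for 12 weeks either to cigarette smoke or to room air (sham). The HCR line had 7 sham and 12 smoke animals, and so did the LCR line. The labels name no transgene or further agent. RNA came from about 25 mg of whole lung, so every value is a mixture over the cell types of the tissue. Fewer cells of a type and less RNA per cell cannot be told apart in such samples.

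Interferons are cytokines released when a cell senses nucleic acid in the wrong place or when lymphocytes are activated. Type I interferons signal through the receptor Ifnar1 and Ifnar2 to a complex that contains Stat2 and Irf9 and binds the interferon-stimulated response element (ISRE) before its target genes. Interferon gamma signals through Ifngr1 and Ifngr2, and its target genes carry a different word, the gamma-activated site (GAS). In the lung these target genes limit virus replication in epithelium and macrophages.

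The binding words are shown first, because genes on this list are known for them. The RefSeq promoter table (assembly GRCr8) held the stretch before the start of 27 of the 35 genes, and its last 250 bases before each start were searched. The ISRE core was taken as GAAANNGAAA, read as TTTCNNTTTC on the other strand, and the GAS as TTCNNNGAA, which reads the same on both strands. A core was found in 16 of the 27 windows (59.3%), against 3.41% of all 33469 windows of the table and 2.68% of the 13192 windows that belong to measured genes. A GAS was found in 9 of the 27 (33.3%), against 7.67% of all windows and 6.35% of those of measured genes. A match is a string of letters and says nothing about binding in these lungs. Of the 8 members with a core and the smallest adjusted p in either smoke comparison, the 5 whose stretch lies outside the annotated gene are shown. Each has 30 bases on both sides of the core, or as far as the start, and is printed 5′ to 3′ on the gene's strand with the core in capitals. Where 2 cores overlap, both are in the capitals.
Gbp2: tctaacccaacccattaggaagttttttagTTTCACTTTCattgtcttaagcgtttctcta
Ifit3: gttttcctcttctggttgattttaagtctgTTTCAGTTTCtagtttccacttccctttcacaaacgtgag
Bst2: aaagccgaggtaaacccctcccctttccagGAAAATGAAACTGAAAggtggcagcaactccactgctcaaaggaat
Ifitm3: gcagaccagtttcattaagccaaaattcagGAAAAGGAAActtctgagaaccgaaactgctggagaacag
Socs1: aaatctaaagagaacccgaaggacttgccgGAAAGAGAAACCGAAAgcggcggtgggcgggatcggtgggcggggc

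The Gbp2 stretch lies at chr2:234005666-234005726 on the plus strand, that of Ifit3 at chr1:241527252-241527321 on the plus strand and that of Bst2 at chr16:18255053-18255128 on the minus strand. Ifitm3 is at chr1:205541763-205541832 on the minus strand, and Socs1 is at chr10:5389437-5389512 on the plus strand. These 5 lie outside the annotated gene. The first base of the core stands 31 bases before the start used in the promoter table in Gbp2, 44 in Ifit3 and Ifitm3, 107 in Socs1 and 131 in Bst2. In Ifi44, Oas1a and Nmi it stands 26, 41 and 100 bases before that start, but the RefSeq gene reaches further upstream and covers all or part of the stretch, which is therefore not printed. Oas1a, Bst2 and Socs1 each hold 2 overlapping cores. The direction of change under smoke differed among these 8 carriers of the core: Oas1a and Nmi fell in both lines, Ifitm3 rose in both, Ifit3 and Ifi44 rose in HCR, Gbp2 and Bst2 fell in LCR, and Socs1 passed the test in neither line. Irf1 and Irf8 held no core and 1 and 2 GAS words respectively. Mx1, Cmpk2, Herc6, Ubd, Ifi35, Oasl, Parp9 and Stat2 held neither word in this window.

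The lung markers Sftpc (surfactant protein C) and Scgb1a1 (club cell secretory protein) had the high intensities of lung in every group, from 9614 to 11118. Values are analysed as log2(intensity + 16), and a change is a difference of group means on that scale with its standard error (SE). A call is an adjusted p under 0.05 in limma, a linear model fitted over all 14217 genes. Under smoke, 48% of all genes were called in HCR and 50.6% in LCR. The interquartile range of log2 values over an array was 2.941 to 3.04 in HCR sham and 2.74 to 2.937 in HCR smoke, without overlap. In LCR it was 2.97 to 3.04 in sham and 2.79 to 3.005 in smoke, so the narrower range moves with smoke. A fit with this range as a covariate is therefore given beside calls that it ended. The range and smoke cannot be fully told apart in that fit, least of all in HCR. A call that ended there is therefore not shown to come from the array rather than from smoke. The part of this range in the results was not otherwise tested. The numbers in the sample titles run separately by group and the labels do not say what they count, so any order they stand for and the group cannot be told apart. HCR sham 0432 had an Actb 3′ minus 5′ difference of 2.06, while all other arrays were at or below 1.08. A set of 6 arrays was marked as carrying muscle or fat markers. LCR smoke 0420 was not in that set, although its heart muscle markers summed to 855, beside a group median of 83.1.

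Interferon response genes moved in both directions under smoke, with more calls higher in HCR and more lower in LCR. In HCR, 8 of 35 members rose and 3 fell (31.4%, beside 48% of all genes, 17.7% higher and 30.4% lower). In LCR, 3 rose and 11 fell (40.0%, beside 50.6% of all genes, 22.7% higher and 27.9% lower). With the array's interquartile range in the fit, 4 of the 11 HCR calls and 6 of the 14 LCR calls were kept, and with median-centred arrays the LCR calls were 5 higher and 7 lower. The share of members called lay below the share of all genes in both lines. The median change of the members was 0.08 in HCR, beside -0.03 for all genes, and -0.13 in LCR, beside -0.005 for all genes. The median size of the change, without its sign, was 0.13 for members and for all genes in HCR, and 0.17 for members and 0.13 for all genes in LCR. In LCR 28 of 35 members had a value below 0, as did 51.2% of all genes, and in HCR 11 did, beside 55.7% of all genes. Many members vary together from animal to animal, so these counts are not of separate measurements. In both lines 6 members were called, and each moved the same way in both: Irf1, Ifitm1 and Ifitm3 higher, Oas1a, Nmi and Ifi35 lower. A further 5 were called in HCR alone and 8 in LCR alone, and 16 in neither line. The plot of smoke changes shows each member in both lines.

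**Figure D1:**
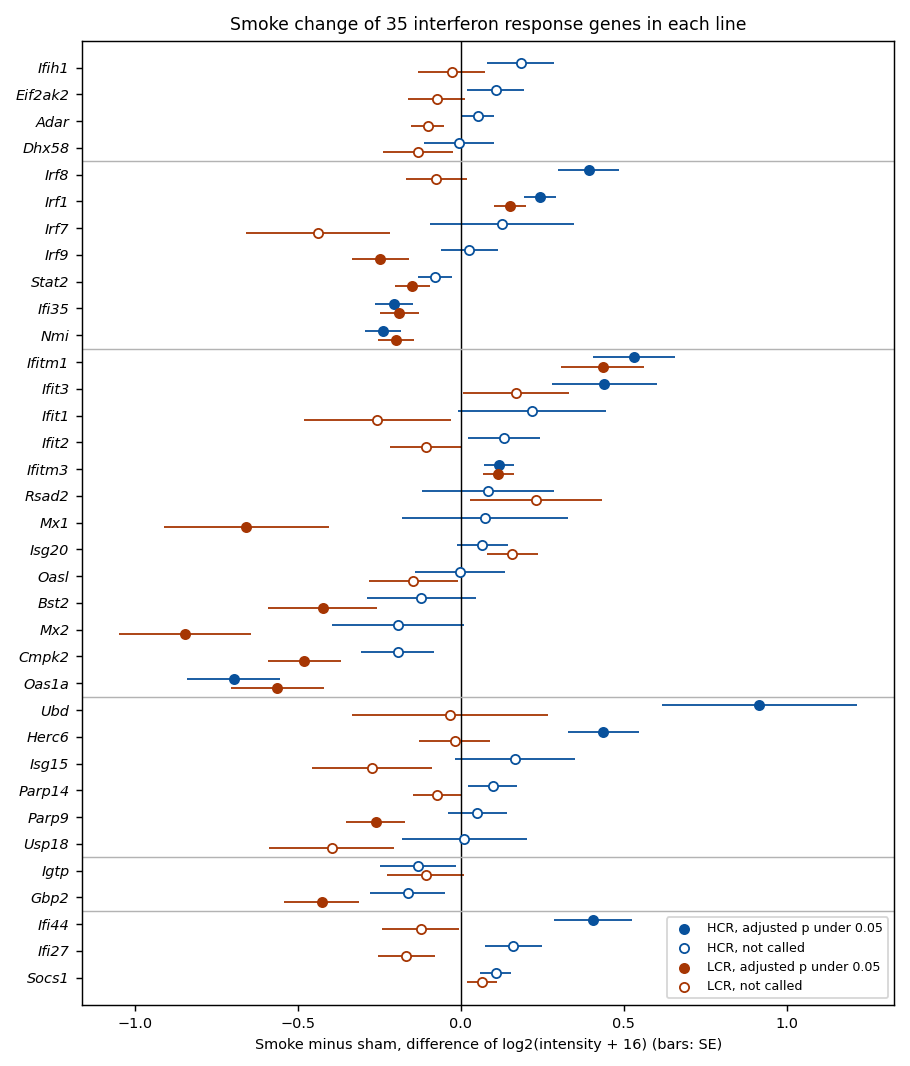
Change of 35 interferon response genes under smoke in each line, as the difference of mean log2(intensity + 16) between 12 smoke and 7 sham animals, with the SE as bars; filled points passed an adjusted p of 0.05 and grey lines part the functional groups. Oas1a, Nmi and Ifi35 lie left of 0 in both lines and Irf1, Ifitm1 and Ifitm3 right of 0 in both, while Ubd, Herc6, Ifi44 and Irf8 are filled and right of 0 in HCR only.

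Among the 7 transcription factors and their partners, Irf1 was higher and Nmi and Ifi35 were lower under smoke in both lines. Irf8 rose in HCR, and Irf9 and Stat2 fell in LCR. Irf1 is a transcription factor that interferon gamma induces directly. Its intensity ranged from 490.0 to 658 (median 555) in HCR sham and from 592 to 734 (median 678) in HCR smoke. In LCR it ranged from 573 to 624 (median 599) in sham and from 583 to 761 (median 678) in smoke. The groups overlap, but all 12 HCR smoke and 10 of 12 LCR smoke animals lay above the sham mean of their line. The change was 0.24 (SE 0.049, adjusted p = 0.000123) in HCR and 0.15 (SE 0.049, adjusted p = 0.0110) in LCR, and both calls held in each alternative run.

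Nmi binds Stat proteins and pairs with Ifi35 in a cytoplasmic complex. Nmi lay between 332 and 435 (median 386) in HCR sham and between 274 and 382 (median 331) in HCR smoke. LCR sham animals had 355 to 414 (median 372) and LCR smoke animals 291 to 369 (median 322). All 12 smoke animals of each line were below the sham mean of that line. Nmi fell by 0.24 (SE 0.055, adjusted p = 0.000681) in HCR and by 0.20 (SE 0.055, adjusted p = 0.00341) in LCR. Ifi35 moved with its partner and fell by 0.20 (SE 0.059, adjusted p = 0.00461) in HCR and by 0.19 (SE 0.059, adjusted p = 0.00803) in LCR. With that range of the array in the fit these calls ended, with adjusted p = 0.177 and 0.0768 for Nmi and 0.406 and 0.138 for Ifi35. A second probe set of Nmi gave -0.05 (adjusted p = 0.588) in HCR and -0.03 (adjusted p = 0.713) in LCR, and the mean of both ended the LCR call (adjusted p = 0.0520).

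Irf8 is a factor of macrophages, dendritic cells and B cells. It ranged from 79.5 to 147 (median 114) in HCR sham and from 115 to 186 (median 149) in HCR smoke. In LCR sham the range was 129.9 to 219 (median 145), and in LCR smoke 119.7 to 191 (median 144). HCR sham is the low group, and the other groups overlap widely. Irf8 rose by 0.39 in HCR (SE 0.094, adjusted p = 0.000899), with all 12 smoke animals above the sham mean. The LCR value was -0.08 (SE 0.094, adjusted p = 0.518).

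Irf9 and Stat2 are the partners that bring type I interferon signals to the response element. In LCR Irf9 lay between 289 and 463 (median 328) in sham and between 228 and 397 (median 299.9) in smoke. It fell by 0.25 (SE 0.087, adjusted p = 0.0178), and Stat2 fell by 0.15 (SE 0.053, adjusted p = 0.0188), each in 10 of 12 smoke animals. In HCR the values were 0.03 for Irf9 (adjusted p = 0.824) and -0.08 for Stat2 (adjusted p = 0.217). A second probe set of each gene passed in both lines at -0.25 and -0.35 for Irf9 and -0.19 and -0.26 for Stat2, HCR first, so probe sets of these genes differ in HCR. Irf9 lost its LCR call without LCR sham 0445 (adjusted p = 0.0715) or 0446 (0.0510), and both genes lost it with quantile normalization, with median-centred arrays and with the array's interquartile range in the fit (adjusted p = 0.0763 for Irf9 and 0.197 for Stat2).

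Irf7 is the factor that amplifies type I interferon production. Its range was 385 to 739 (median 604) in HCR sham, 472 to 834 (median 601) in HCR smoke, 356 to 1345 (median 756) in LCR sham and 253 to 1012 (median 546) in LCR smoke. The spread within LCR groups is wide, and all 4 groups overlap. The smoke change was 0.13 (SE 0.22, adjusted p = 0.659) in HCR and -0.44 (SE 0.22, adjusted p = 0.0952) in LCR, neither of which passed.

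**Figure D2:**
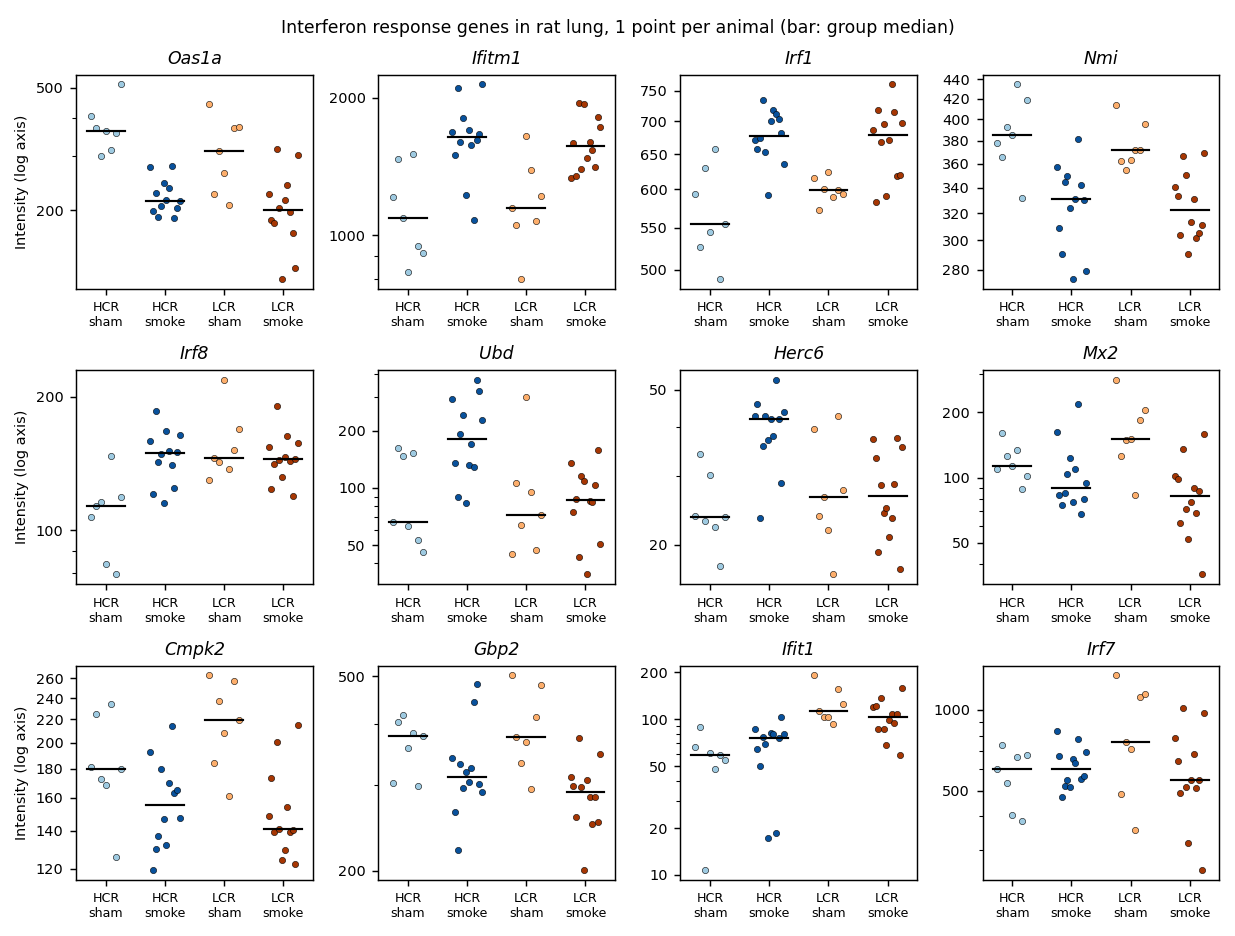
Intensity of 12 interferon response genes on log axes, with 1 point for each of the 38 animals and a bar at the group median. Oas1a in HCR smoke (189.5 to 278) lies wholly below HCR sham (299 to 514), Ifit1 in LCR sham (93.5 to 191) lies wholly above HCR sham (10.8 to 88.4), and Ubd in HCR smoke reaches 371.

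The 13 antiviral effectors split by gene. In both lines Ifitm1 and Ifitm3 rose and Oas1a fell, Ifit3 rose in HCR, and Mx1, Mx2, Cmpk2 and Bst2 fell in LCR. Oas1a makes the short oligoadenylates that switch on the RNA-cutting enzyme RNase L. Oas1a, the Ifitm genes and the Mx genes have close relatives in rodents, and signal shared with those was not separated here. Its intensity was 299 to 514 (median 363) in HCR sham and 189.5 to 278 (median 215) in HCR smoke. Those ranges do not overlap, which holds for 1 of 35 members and 5.87% of all genes in HCR. In LCR the ranges were 209 to 444 (median 311) in sham and 119.97 to 318 (median 201) in smoke, which overlap. There 0 of 35 members were free of overlap, beside 14.5% of all genes. Oas1a fell by 0.70 (SE 0.14, adjusted p = 0.000151) in HCR and by 0.56 (SE 0.14, adjusted p = 0.00132) in LCR. With the array's interquartile range in the fit the HCR value was -0.47 (adjusted p = 0.0530), and the LCR call held in each alternative.

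Ifitm1 and Ifitm3 are membrane proteins that hinder the fusion of virus particles with the cell. Ifitm1 was 829.6 to 1506 (median 1090.2) in HCR sham and 1082 to 2139 (median 1642) in HCR smoke. In LCR it was 802 to 1651 (median 1144) in sham and 1334 to 1948 (median 1564) in smoke. Smoke animals of both lines reached levels above any sham animal of their line, though the ranges overlap. Ifitm1 rose by 0.53 (SE 0.13, adjusted p = 0.000818) in HCR and by 0.44 (SE 0.13, adjusted p = 0.00449) in LCR, and both calls held in each alternative. Ifitm3, with group medians from 3175 to 3530.4, rose by 0.12 in each line (SE 0.047, adjusted p = 0.0382 and 0.0395). Those small changes lost their call when any of 10 single arrays in HCR (adjusted p 0.0517 to 0.154) or 9 in LCR (0.0511 to 0.177) was left out. With the array's interquartile range in the fit the adjusted p was 0.158 in HCR and 0.0733 in LCR, and the calls also ended with the Actb difference in the fit (0.267 and 0.158), with array weights (0.0801) or without the 6 arrays (0.0802) in HCR, and with quantile normalization (0.126) in LCR.

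Mx1 and Mx2 are dynamin-like GTPases that trap viral nucleocapsids. Mx2 in LCR lay between 83.6 and 283 (median 151) in sham and between 35.8 and 159 (median 82.0) in smoke. In HCR the ranges were 89.0 to 161 (median 113) in sham and 67.8 to 218 (median 89.8) in smoke. LCR smoke holds the lowest values and LCR sham the highest, with overlap. Mx2 fell by 0.85 in LCR (SE 0.20, adjusted p = 0.000746), in 11 of 12 smoke animals, and was -0.19 in HCR (SE 0.20, adjusted p = 0.453). Mx1 ran from 93.0 to 339 (median 210.2) in LCR sham and from 54.7 to 328 (median 111) in LCR smoke, which is nearly full overlap. It fell by 0.66 (SE 0.25, adjusted p = 0.0298), and its HCR value was 0.07 (SE 0.25, adjusted p = 0.828). The Mx1 call ended when LCR sham 0443, 0445 or 0446 or LCR smoke 0421 or 0428 was left out, with adjusted p from 0.0535 to 0.0869. It also ended with the interquartile range (0.141) or the Actb difference (0.0961) in the fit, with only the compared groups (0.0517) and without the 6 arrays with muscle or fat markers (0.0568).

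The second probe set for Mx2, which was not used above, behaves in an all-or-none way. On 22 arrays it read 3.83 to 6.49, near the lowest value in the table (2.09), and on the other 16 it read 61.8 to 354. Both kinds of array occur in all 4 groups. The first probe set read 35.8 to 283 on the 22 arrays and 52.3 to 218 on the 16, so it does not part the arrays in the same way. Within the 16, both probe sets were lowest in LCR smoke 0421 (52.3 and 61.8) and highest in HCR smoke 0416 (218 and 354). Their relation on these arrays was not tested. The mean of the pair of probe sets gave no Mx2 call in LCR (adjusted p = 0.321), and the second probe set alone changed by -0.04 in LCR (SE 0.69, adjusted p = 0.970). In LCR the second probe set was in its low range on 5 of 7 sham and 8 of 12 smoke arrays. On the remaining LCR arrays it read 110 and 216 in sham and 61.8 to 172 in smoke. With so many arrays near the lowest value it cannot test the decline of Mx2, which thus rests on the first probe set alone.

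**Figure D3:**
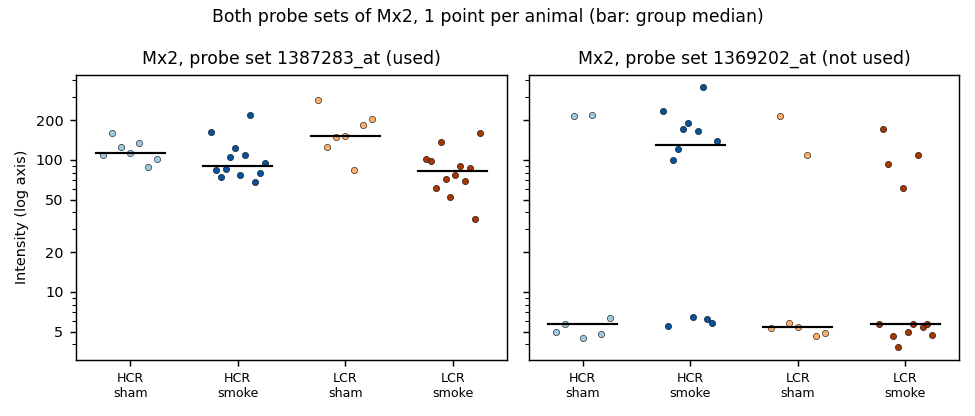
Intensity of both Mx2 probe sets on a log axis, with 1 point for each animal and a bar at the group median. The probe set used has 1 continuous range in every group, from 35.8 to 283, while the other has 22 animals under 6.5 and 16 above 61, with both kinds in every group.

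Cmpk2 is a mitochondrial nucleotide kinase whose gene neighbours Rsad2. It was 161 to 263 (median 219) in LCR sham and 122 to 215 (median 141) in LCR smoke, and fell by 0.48 (SE 0.11, adjusted p = 0.000540). All 12 smoke animals lay below the sham mean, and the call held in each alternative. The HCR change of Cmpk2 was -0.19 (SE 0.11, adjusted p = 0.151). Bst2 (tetherin), which holds budding virus on the cell surface, was 2426 to 3350 in LCR sham and 1169 to 2707 in LCR smoke. Bst2 fell by 0.42 there (SE 0.17, adjusted p = 0.0338), and was -0.12 in HCR (adjusted p = 0.577). In HCR, smoke 0412 read 774 beside 1832 to 2678 in the other smoke animals. Sham 0432 read 1372 beside 2292 to 2777 in the other sham animals. These 2 arrays had the highest Actb 3′ minus 5′ difference of their groups, at 0.863 and 2.06. The part of that difference in the HCR value was not tested on its own. The LCR call of Bst2 ended without any 1 of LCR sham 0443, 0445 or 0446 or LCR smoke 0421 (adjusted p 0.0553 to 0.0668). It also ended with median-centred arrays (0.0548), with the interquartile range in the fit (0.0956) and without the 6 arrays with muscle or fat markers (0.0618).

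Ifit3 belongs to a family that binds foreign RNA ends. It was 73.7 to 233 (median 134) in HCR sham and 146 to 266 (median 190.5) in HCR smoke, and rose by 0.44 (SE 0.16, adjusted p = 0.0244). All 12 smoke animals exceeded the sham mean, yet the call ended without HCR sham 0436 or 0439 (adjusted p = 0.0720 to 0.0995). The LCR value was 0.17 (SE 0.16, adjusted p = 0.389). The other effectors, Ifit1, Ifit2, Oasl, Rsad2 and Isg20, passed in neither line, with changes from -0.26 to 0.23.

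Of the 6 genes of ubiquitin-like conjugation and ADP-ribosylation, Ubd and Herc6 rose in HCR and Parp9 fell in LCR. Ubd is a ubiquitin-like tag for proteasomal breakdown that interferon gamma and tumour necrosis factor induce. It was 46.0 to 162 (median 65.9) in HCR sham and 83.5 to 371 (median 182) in HCR smoke. In LCR it was 44.6 to 302 (median 72.1) in sham and 34.997 to 159 (median 86.2) in smoke. The HCR smoke group is the high one, and 11 of its 12 animals lay above the HCR sham mean. Ubd rose by 0.92 in HCR (SE 0.30, adjusted p = 0.0120), the largest change of a member in that line, and was -0.03 in LCR (SE 0.30, adjusted p = 0.939).

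Herc6 is the ligase that attaches Isg15 to proteins in rodents. Its level was 17.7 to 34.2 (median 23.6) in HCR sham and 23.4 to 53.0 (median 42.0) in HCR smoke. In LCR the ranges were 16.8 to 42.8 (median 26.5) in sham and 17.3 to 37.6 (median 26.6) in smoke. It is a dim gene in every group. Herc6 rose by 0.44 in HCR (SE 0.11, adjusted p = 0.00128) and was -0.02 in LCR (SE 0.11, adjusted p = 0.902). With the array's interquartile range in the fit the HCR values became 0.58 for Ubd (adjusted p = 0.315) and 0.20 for Herc6 (adjusted p = 0.293).

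Parp9, an ADP-ribosyl transferase that works with Dtx3l, was 286 to 460 (median 333) in LCR sham and 233 to 384 (median 282) in LCR smoke. It fell by 0.26 (SE 0.091, adjusted p = 0.0169), and lost the call without LCR sham 0445 (adjusted p = 0.0700), with median-centred arrays (0.0534) and with the interquartile range (0.104) or the Actb difference (0.0589) in the fit. The HCR value was 0.05 (SE 0.091, adjusted p = 0.666). Isg15, the ubiquitin-like modifier itself, and Usp18, the protease that removes it, did not pass in either line. Isg15 was 257 to 780.3 in LCR sham and 205 to 642 in LCR smoke, a change of -0.27 (SE 0.18, adjusted p = 0.219). The Usp18 change in LCR was -0.40 (SE 0.19, adjusted p = 0.0815), and that of Parp14 was -0.07 (SE 0.074, adjusted p = 0.424).

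Gbp2, a guanylate-binding GTPase of the interferon gamma response, was 294 to 502 (median 375) in LCR sham and 201 to 374 (median 289.8) in LCR smoke. It fell by 0.43 (SE 0.11, adjusted p = 0.00227) in 12 of 12 smoke animals, a call that held in each alternative. In HCR its value was -0.16 (SE 0.11, adjusted p = 0.241). Igtp, the other measured GTPase, was -0.13 in HCR and -0.11 in LCR (adjusted p = 0.368 and 0.453). Ifi44, a cytoplasmic protein of the antiviral response, was 75.4 to 101 (median 91.5) in HCR sham and 86.8 to 178 (median 121) in HCR smoke. It rose by 0.41 there (SE 0.12, adjusted p = 0.00524) in 11 of 12 animals, and was -0.12 in LCR (SE 0.12, adjusted p = 0.396). Fitted with the array's interquartile range, the HCR value of Ifi44 was 0.08 (adjusted p = 0.718).

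Socs1, which shuts off the receptor kinases, was dim, with group medians of 25.1 to 28.1. It passed in neither line (0.11 in HCR, adjusted p = 0.0548, and 0.07 in LCR, adjusted p = 0.240). In HCR Socs1 did pass in 10 of the alternative runs, with a lowest adjusted p of 0.0166. The 4 sensors and RNA-binding effectors passed in neither line on the probe set used. They are Ifih1 and Dhx58, which sense double-stranded RNA, the kinase Eif2ak2, which halts translation, and the editing enzyme Adar. Their changes ran from -0.01 to 0.18 in HCR and from -0.13 to -0.03 in LCR. Adar has 3 probe sets. In HCR the brightest was 0.05 (adjusted p = 0.419), while 1 of the others fell by 0.21 (adjusted p = 0.0176) and the other was -0.08 (adjusted p = 0.506). In LCR all 3 were below 0, the brightest at -0.10 (adjusted p = 0.0967) and the others at -0.25 (adjusted p = 0.0204) and -0.34 (adjusted p = 0.000220). These p-values are from the fit of all probe sets.

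Between the lines under sham, 3 of 35 members were called, all higher in LCR (8.57%, beside 3.73% of all genes, 1.39% higher and 2.34% lower), and 2 of them did not overlap (beside 0.858% of all genes). Ifit1, which binds RNA that lacks the host cap, was 10.8 to 88.4 (median 59.0) in HCR sham and 93.5 to 191 (median 112) in LCR sham. It was higher in LCR by 1.06 (SE 0.25, adjusted p = 0.0127). Without the 6 arrays with muscle or fat markers, which include the lowest HCR animal, the adjusted p was 0.0579. Smoke groups kept the same order, at 17.3 to 103 (median 76.2) in HCR and 59.1 to 157 (median 103) in LCR. The difference of 0.58 (SE 0.19, adjusted p = 0.0628) did not pass. HCR smoke 0409 and 0416 read 17.3 and 18.5, while the other animals of that group read 50.2 to 103. In 0416, 29 of 35 members lay above the group median. The reason for these low Ifit1 readings was not tested.

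Ifi27, a small protein of mitochondria and the nuclear membrane, was 2892 to 3835 (median 3425) in HCR sham and 3866 to 4990 (median 4272) in LCR sham. Its difference was 0.37 (SE 0.099, adjusted p = 0.0296), and it did not pass without any 1 of 4 single arrays (adjusted p 0.0524 to 0.0790). Irf8 was higher in LCR sham by 0.46 (SE 0.11, adjusted p = 0.00852), with all 7 LCR animals above the HCR mean, and with only the sham groups in the fit it did not pass (adjusted p = 0.0765). Over all members the median difference was 0.10, beside -0.01 for all genes.

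Between the lines under smoke, 4 of 35 members were called, all lower in LCR (11.4%, beside 6.32% of all genes, 4.61% higher and 1.7% lower), and 0 members did not overlap (beside 0.0844% of all genes). Parp9 was 312 to 446 (median 384) in HCR smoke and 233 to 384 (median 282) in LCR smoke, a difference of -0.37 (SE 0.078, adjusted p = 0.00373) that held in each alternative. Ubd differed by -0.98 (SE 0.26, adjusted p = 0.0186) and Herc6 by -0.35 (SE 0.094, adjusted p = 0.0187). For both, all 12 LCR animals lay below the HCR mean. Ifi44 differed by -0.32 (SE 0.10, adjusted p = 0.0488), which did not pass without any 1 of 26 single arrays (adjusted p 0.0501 to 0.0934). Fitted with the array's interquartile range, the adjusted p was 0.0894 for Ubd, 0.127 for Herc6 and 0.300 for Ifi44.

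The test of whether smoke acted differently in the lines is the interaction, the LCR change minus the HCR change. Of the 35 members, 0 passed it in limma, beside 1.87% of all genes (1.52% higher and 0.352% lower), while 10 had an unadjusted p under 0.05. Irf8 came nearest, at -0.47 (SE 0.13, adjusted p = 0.0545), and it passed in 5 alternatives with 1 call each and in the fit with array weights. That fit also called Herc6, Ifi44 and Parp9, 4 in all. Of the genes called in HCR alone, Ifi44 had an interaction of -0.53 (adjusted p = 0.0835), Herc6 of -0.46 (0.100), Ubd of -0.95 (0.214) and Ifit3 of -0.27 (0.555). For the 8 genes called in LCR alone the adjusted p ran from 0.177 for Parp9 to 0.659 for Stat2. A difference between the lines is therefore not shown for any of these 13 genes by this test. The interaction was below 0 in 29 of 35 members, beside 42.2% of all genes, with a median of -0.24. The members vary together from animal to animal, so these 29 are not separate measurements.

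With the 4 groups pooled, the members varied more between animals of a group than most genes did. The median SD of the members within groups was 0.24, beside 0.12 for all genes, and 29 of 35 lay above that median of all genes. The mean over all members had an SD of 0.14 in HCR sham and 0.12 in HCR smoke, beside 0.20 in LCR sham and 0.21 in LCR smoke. Deviations from the group mean were then compared with those of Irf7 over the 38 arrays, as a description. The correlation r with Irf7 had a median of 0.64 over the other 34 members, and 22 of them exceeded 0.5, as did 0.746% of the other 14216 genes. Isg15 (r = 0.93), Usp18 (0.90), Oasl (0.89), Mx1 (0.86), Oas1a and Mx2 (0.84 each) followed Irf7 most closely among members. These values pool the 4 groups, and the lines differed for some genes. Oas1a had r = 0.26 in HCR sham and 0.55 in HCR smoke, beside 0.98 and 0.94 in LCR. For Mx2 the values were 0.64 and 0.62 in HCR and 0.96 and 0.97 in LCR. Isg15 had 0.95 and 0.77 in HCR and 0.96 and 0.97 in LCR. Ifit1 had 0.15 and 0.06 in HCR and 0.81 and 0.97 in LCR. The gene most like Irf7 in the whole table was Rtp4 (r = 0.93), an interferon-induced chaperone of receptors, and 14 members were among the 30 genes most like it. Without the pair of arrays farthest from the median of Irf7, r was 0.91 for Isg15 and 0.83 for Mx1.

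**Figure D4:**
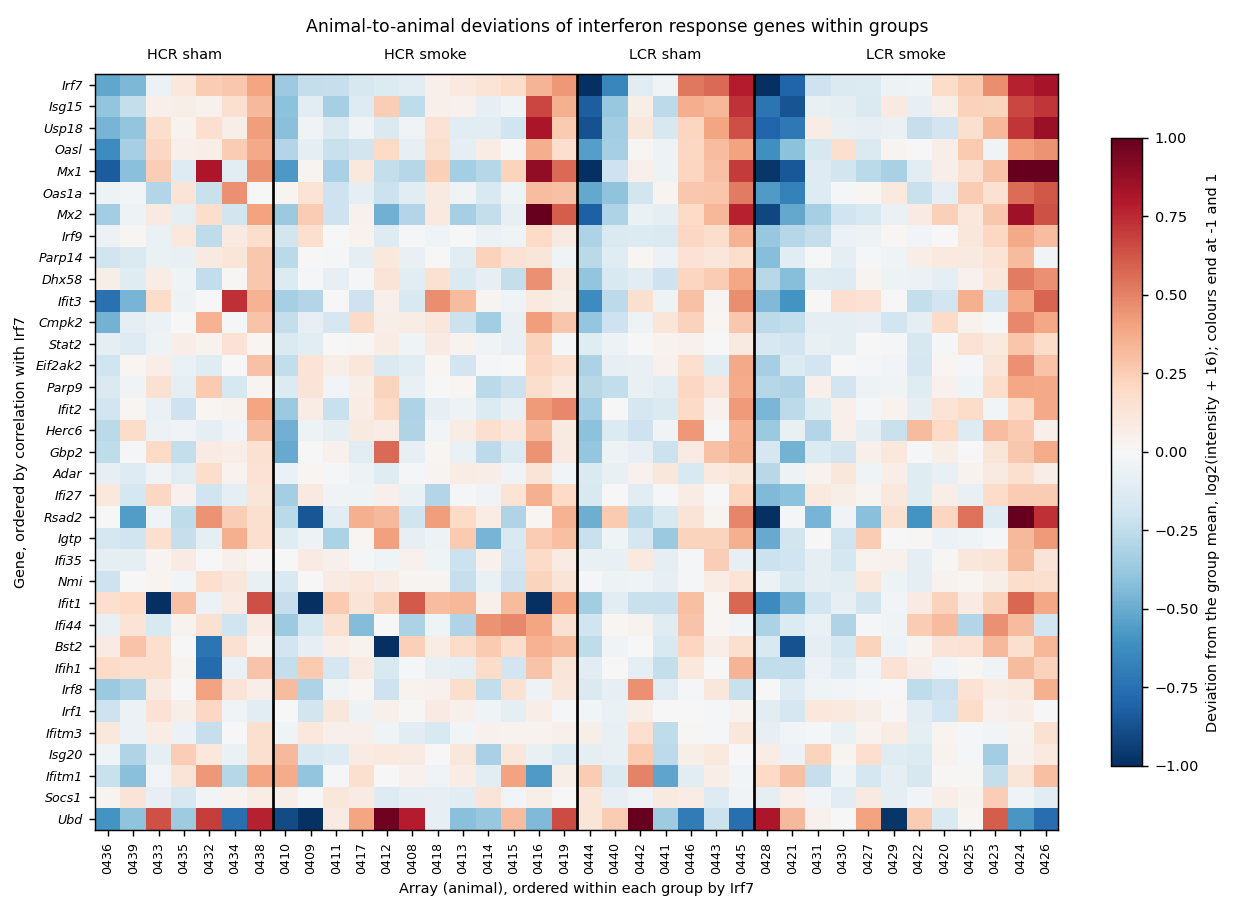
Deviation of each member (rows, ordered by correlation with Irf7) from its group mean in log2(intensity + 16), for 38 animals (columns, ordered by Irf7 within each group); red is above and blue below the group mean. Whole columns are red in LCR smoke 0424 and 0426 and LCR sham 0445, and blue in LCR smoke 0421 and 0428 and LCR sham 0444, while the rows of Ubd, Socs1, Ifitm1 and Isg20 at the bottom do not follow.

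Single animals thus stood high or low for nearly the whole list. In LCR smoke 0424, 33 of 35 members lay above the group median, and in 0426 it was 30. In LCR smoke 0421 and 0428, 31 lay below it. LCR sham 0446 had 29 above and LCR sham 0444 had 29 below, and LCR sham 0445 had 28 above. HCR smoke 0419 had 30 above and 0410 had 30 below. Irf7 in those animals ran from 253 in LCR smoke 0428 to 1345 in LCR sham 0445.

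Over the 38 arrays pooled, other members followed Irf7 less. Ubd had r = -0.23 with Irf7, Socs1 -0.07, Ifitm1 -0.01, Isg20 0.05 and Ifitm3 0.19, and Irf1 and Irf8 had 0.32 and 0.33. Of these 7 genes, 5 were among the 8 that rose under smoke in HCR. Within the 7 HCR sham arrays alone, r with Irf7 was higher for Irf8 (0.85), Ifitm1 (0.71) and Isg20 (0.66). The median r with Irf7 was 0.63 over 15 genes with a core and 0.73 over 11 without. Deviations of the mean over 13 T and NK cell markers had r = 0.41 with Irf7, macrophage markers 0.31, B and plasma cell markers 0.15, the Actb 3′ minus 5′ difference 0.20 and the interquartile range 0.04. All of these points share the same 38 arrays, and the part of cell numbers in the shared variation was not tested.

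**Figure D5:**
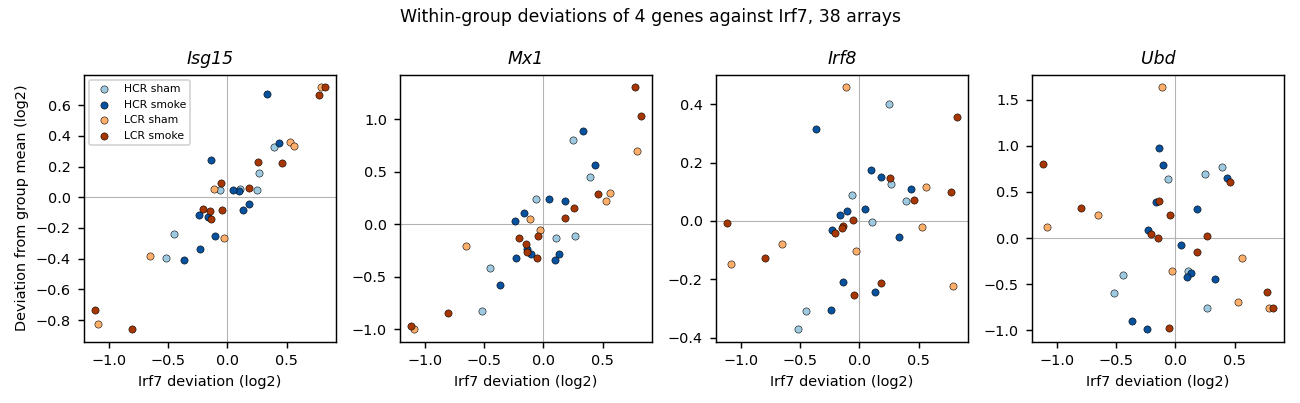
Deviations from the group mean of Isg15, Mx1, Irf8 and Ubd against those of Irf7 in log2(intensity + 16), with 1 point for each of 38 animals coloured by group. Isg15 (r = 0.93) and Mx1 (r = 0.86) rise along a line in all 4 groups, while Irf8 (r = 0.33) scatters and Ubd (r = -0.23) does not follow Irf7.

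Of 11 listed ligand genes, 5 were measured, and 3 of those are interferons, which read near the lowest value of the array. Ifng read 2.86 to 4.01, Ifnb1 4.53 to 8.16 and Ifnk 2.68 to 4.15 on all arrays, and none passed under smoke in either line. The other listed interferons are not analysed here. Il18, a cytokine that drives interferon gamma release, rose by 0.64 (SE 0.15, adjusted p = 0.000627) in HCR and by 0.97 (SE 0.15, adjusted p = 1.39e-06) in LCR. Of 10 receptor and signalling genes, 2 rose and 2 fell in HCR, and 3 rose and 1 fell in LCR. Of all genes, 48% were called in HCR and 50.6% in LCR. Ifngr2, the signalling chain of the interferon gamma receptor, was 300.3 to 338 in HCR sham and 354 to 442 in HCR smoke, and 291 to 342 and 386 to 511 in LCR. It rose by 0.35 in HCR and 0.51 in LCR (adjusted p = 2.75e-07 and 8.96e-11), with no overlap in either line. Such a lack of overlap was found for 5.87% of all genes in HCR and 14.5% in LCR. Ifngr1, the ligand-binding chain, fell by 0.23 in HCR (adjusted p = 0.000240) and was -0.09 in LCR (adjusted p = 0.102). Ifnar1 and Ifnar2 did not pass in either line, with changes from -0.08 to 0.13.

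Upstream of the interferons, 3 of 10 sensors and adaptors rose and 2 fell in HCR, and 4 rose and 1 fell in LCR. For this list and the next, the share of all genes called was 48% in HCR and 50.6% in LCR. Sting1, the adaptor for DNA in the cytoplasm, was 133 to 233 in HCR sham and 199.9 to 512 in HCR smoke, and 161 to 217 and 317 to 514 in LCR. It rose by 0.90 in HCR (SE 0.13, adjusted p = 8.16e-07) and by 1.12 in LCR (SE 0.13, adjusted p = 6.95e-09), while Irf3, the factor it activates, fell by 0.22 and 0.34 (adjusted p = 0.00300 and 1.64e-05). Among 9 negative regulators, 1 rose and 2 fell in HCR, and 6 rose and 2 fell in LCR. Socs3 rose by 0.45 in HCR and by 0.58 in LCR (adjusted p = 0.00248 and 0.000129).

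A further list of 35 measured interferon-induced genes had 4 higher and 6 lower in HCR, and 6 higher and 13 lower in LCR. Beside these stand 17.7% of all genes higher and 30.4% lower in HCR, and 22.7% higher and 27.9% lower in LCR. Ifi30, a lysosomal thiol reductase, rose by 0.62 and 0.90, and Cxcl11, a chemokine for T cells, rose by 0.61 and 0.69, HCR first. Trim34 fell by 0.39 and 0.71, and Sp100, a nuclear body protein, fell by 0.31 and 0.44. Of the chemokines that share the receptor of Cxcl11, Cxcl9 fell by 0.57 in HCR (SE 0.20, adjusted p = 0.0174) and was 0.20 in LCR (adjusted p = 0.402). Cxcl10 passed in neither line (0.29 and 0.11, adjusted p = 0.248 and 0.668).

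Cell type markers moved in the same comparisons. Under smoke 48% of all genes were called in HCR and 50.6% in LCR, and 3.73% between the lines under sham. Of 11 macrophage markers, 7 rose and 2 fell in HCR and 9 rose and 1 fell in LCR, and their summed intensity was 4504 to 6596 in HCR sham and 6424 to 11562 in HCR smoke. In LCR that sum was 3571 to 5607 in sham and 9025 to 13079 in smoke. Of 13 T and NK cell markers, 1 rose in HCR and 8 fell in LCR, and 8 were higher in LCR sham than in HCR sham. Their summed intensity was 716 to 2154 in HCR sham, 1013 to 1475 in HCR smoke, 1697 to 2726 in LCR sham and 1002 to 2368 in LCR smoke. Of 5 B and plasma cell markers, 4 fell in LCR. Of 6 endothelial markers, 5 fell in HCR (list median -0.44) and 6 in LCR (-0.48), and of 8 neutrophil markers 4 rose in HCR and 5 in LCR. The endothelial sum was 11800 to 13494 in HCR sham, 8438 to 11243 in HCR smoke, 10753 to 13917 in LCR sham and 8807 to 10182 in LCR smoke, and the neutrophil sum was 382 to 3979, 2025 to 9193, 542 to 1336 and 4924 to 8235 in the same order. The dendritic cell list, which contains the members Bst2 and Irf8, had 3 of 9 higher in HCR, and 3 higher and 3 lower in LCR. Some of these markers were dim, among them 4 of the 8 neutrophil markers in HCR sham, HCR smoke and LCR smoke and 5 in LCR sham. The fall of Mx1, Mx2, Cmpk2, Gbp2 and others in LCR and the line difference of Irf8 under sham run beside these marker lists, whose part in the results was not tested.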

How the data were processed

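Lung RNA of 38 rats was hybridised to 1 array each, and groups were taken from the labels, which describe separate animals. The intensity values deposited by the authors are linear, from 2.09 to 11558, for 31099 probe sets. How they were summarised and normalized is not stated in any label or file used. They were taken to log2 after adding 16 and not normalized again. The platform annotation gave 1 gene symbol for 20826 probe sets, several for 436 and none for 9780, and a further 57 are controls. A gene was represented by its brightest single-symbol probe set (mean of the 38 arrays), leaving 14217 genes. Of the 35 members, 11 had several probe sets.

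Group means were fitted with limma 3.58.1 in R 4.3.3 (lmFit and eBayes, two-sided, 34 residual degrees of freedom), with 5 contrasts, Benjamini-Hochberg adjustment over all 14217 genes and a threshold of 0.05. Each adjusted p is from that tool. The number of arrays limits the precision. The alternatives changed 1 choice at a time. Values were quantile-normalized, centred on each array's median, filtered for dim genes or given a pseudocount of 1. Probe sets were averaged or all tested. The fit used only the compared groups, robust variances with a trend, weights for arrays, or 1 covariate (interquartile range or Actb 3′ minus 5′ difference of the array), or left arrays out. Every member could be named. From the other lists up to 4 passing genes for each comparison could be named by adjusted p, with a few ligands, receptors and chemokines whatever their values. Rtp4 was named because it was most like Irf7, and the marker genes Sftpc and Scgb1a1 because they define lung. The members and lists were chosen with earlier results of these data known. Tables and figures were made with Python 3.11.15, pandas 2.3.3, NumPy 2.4.6 and matplotlib 3.10.9.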

Additional observations from a re-analysis of the deposited data

Results flagged for a closer look

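In each sham group of 7 animals, the gap between the most extreme animal and its neighbour was divided by the range of the group, on the log2 scale, with 0.568 as the critical value. Of 70 groups of a member tested, 5 exceeded it, and chance alone passes about 1 in 20. Ifit1 in HCR sham 0433 read 10.8, while the other 6 animals read 48.1 to 88.4 (gap over range 0.642). This animal is 1 of the 6 with muscle or fat markers. Bst2 in HCR sham 0432 read 1372 beside 2292 to 2777 (0.727), and Ifih1 in the same animal read 23.6 beside 48.3 to 66.3 (0.663). That array also had the Actb 3′ minus 5′ difference of 2.06. Ifit2 in HCR sham 0438 read 596 beside 387 to 462 (0.593), and 29 of 35 members lay above the group median in that animal. Ubd in LCR sham 0442, another array with muscle markers, read 302 beside 44.6 to 106 (0.58).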

How the results depend on the processing

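Of 32 calls of a member in a comparison, 9 passed in each of the 12 alternatives and with each of the 38 arrays left out, and 0 changed direction. They are Irf1 and Ifitm1 in both lines, Oas1a, Cmpk2 and Gbp2 in LCR, Irf8 in HCR and Parp9 between the lines under smoke. The largest loss came with the interquartile range of each array in the fit, which left 4 calls in HCR, 8 in LCR (6 of them among the 14) and 1 between the lines under smoke. The interaction gave 1 call, Irf8, with quantile normalization, with median-centred arrays, with dim genes left out, and with the interquartile range or the Actb difference in the fit, and 4 calls with array weights. The causes were not tested. Median-centred arrays gave 5 higher and 7 lower in LCR, beside 3 higher and 11 lower without centring. Some members without a call under smoke passed in single runs, counting alternatives and arrays left out. Socs1 in HCR passed in 10 runs, Isg20 in LCR in 7, Irf7 and Usp18 in LCR in 4 each, and Adar in LCR in 3. Any other such member passed in at most 2. Leaving out single arrays gave 10 to 12 calls in HCR, 10 to 17 in LCR, 2 to 3 under sham, 3 to 5 under smoke and 0 to 2 in the interaction, with 4 LCR calls lost without LCR sham 0445 (Mx1, Irf9, Bst2 and Parp9) and 4 without LCR sham 0446 (Mx1, Irf9, Bst2 and Ifitm3). Fitting only the compared groups gives no interaction. Herc6 and Socs1 are near the dim end of the array, where the added 16 shrinks changes. No paired analysis was possible because the groups share no sample numbers.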
